A study of Mus musculus with 3 samples.

Results

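Axon guidance cues and receptors were read as transcripts in a pool cut from the mesenchyme that builds the skin of the back. The pool also held marker transcripts of neighbouring tissues. The genes were those of the ephrin ligands and Eph receptors, the semaphorins with their plexin and neuropilin receptors, the Slits with the Robo receptors, and the netrins with the Unc5 receptors. They were chosen by gene symbol alone, as every probe whose symbol carried the name of one of these families and by no threshold on a measured value, though these families were picked with earlier results of these data known. The rule gave 92 of the 25697 probes on the array, for 63 of its 18120 gene symbols. Of the 63 symbols, 2 matched by their letters only: Unc50 is not a netrin receptor gene, and Unc5cl encodes a protein related to Unc5c that is not one of the classical netrin receptors. Both are counted in the totals, as the rule takes them, and in none of the families. The netrin receptor Dcc and the family members Epha10, Ntn5, Plxnb2, Robo3 and Sema4c were not analysed here.

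The RNA came from dorsal dermal fibroblast progenitors of mouse embryos at embryonic day 12.5, with the genotype Engrailed1Cre/+;R26R/+, that is, 1 copy of Cre recombinase at the Engrailed1 locus and 1 copy of a Cre reporter at Rosa26. Cells were cut out by laser capture from 5 embryos, their RNA was pooled, and the pool was read on 3 Illumina MouseRef-8 v2.0 bead arrays as technical replicates. There was 1 group, with no Cre-free, mutant or later group to set beside it, so the only question the data answer is which guidance transcripts were read above array background. Every SD below is the spread of 3 arrays of 1 pool and says nothing of the spread between embryos.

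Guidance molecules work as pairs of a cue and a receptor. Ephrins sit on the surface of 1 cell and bind Eph receptor tyrosine kinases on the next, and signals pass into both cells; A ephrins hang on a lipid anchor and B ephrins span the membrane. Class 3 semaphorins are secreted and act through a neuropilin, which binds the cue, and a plexin, which passes the signal on, whereas most other semaphorins are anchored in the membrane and bind plexins directly. Secreted Slits bind Robo receptors and repel growing axons, and netrins attract axons through Dcc and repel them through Unc5. All 4 systems also steer migrating cells and vessels outside the nervous system, and in embryonic skin they meet ingrowing sensory nerves and capillaries.

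The detection p of a probe is the share of negative control beads at least as bright as it. Detected here means a detection p under 0.01 on each of arrays 1, 2 and 3, and 1 such probe was enough for a gene to count. Of the guidance probes 31 of 92 were detected (33.7%), while 37.7% of all probes on the array were. Of the guidance genes 26 of 63 were detected (41.3%), while 43.4% of all genes were. The share was thus close to that of the array as a whole, and the count by itself is no result about guidance genes. Among the 31 detected probes, 28 were brighter than every control bead on all 3 arrays (a detection p of 0), or 90.3%, against 89.9% of all detected probes. Cues were detected at 15 of 33 genes (45.5%) and receptors at 11 of 28 (39.3%). A further 9 guidance probes passed on 1 or 2 arrays (9.78%, beside 8.27% of all probes). A transcript without a call may still be there below the limit of the array, and the signal of 1 probe is not set against that of another, since probes differ in how well they bind.

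**Figure D1:**
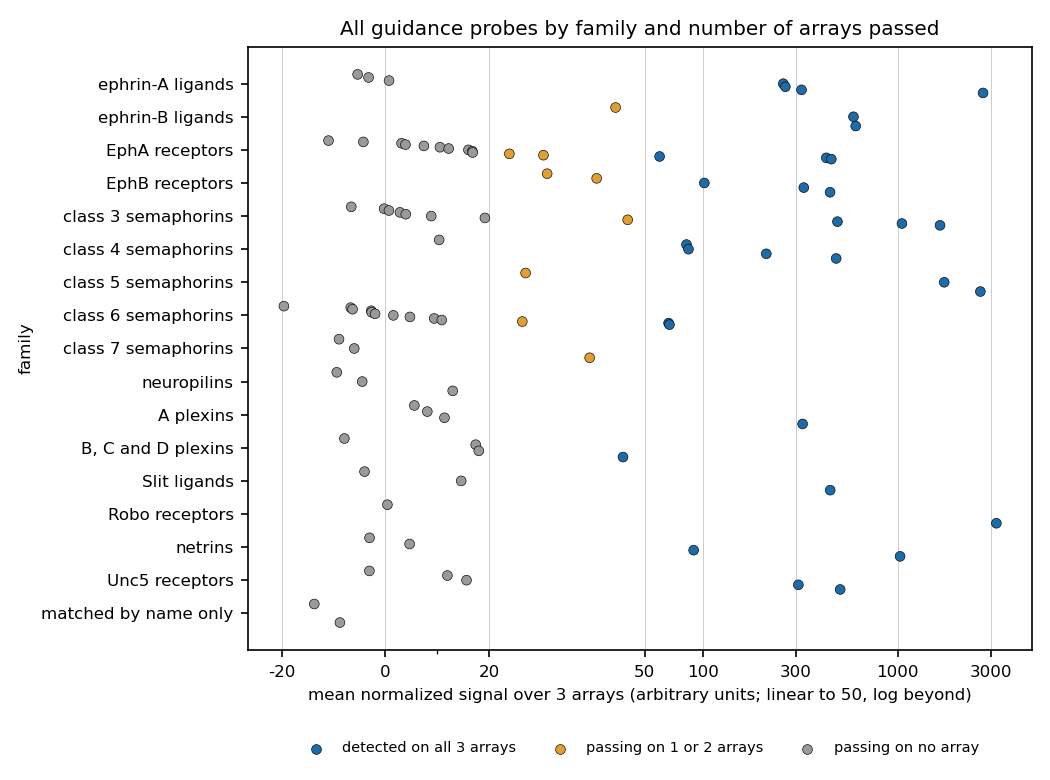
Mean normalized signal over 3 arrays of each of the 92 guidance probes (horizontal axis, arbitrary units, linear up to 50 and logarithmic beyond), by family (vertical axis). Blue points were detected on all 3 arrays, orange points passed on 1 or 2 arrays and grey points on none; the 31 detected probes lie at means of 45.8 or more.

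Detection was compared with a feature that the choice of genes did not use, the sequence just before the start of transcription. RefSeq promoter entries (build GRCm38.p6) were matched by symbol for 54 of the 63 genes, and the 250 bases before the start were read. Across the array, promoters of detected genes held a median of 16 CpG dinucleotides (4210 genes) and those of genes not detected a median of 5 (5255 genes). Guidance promoters did not show that gap: the median was 17 CpG for the 25 detected genes and 16 for the 29 not detected. The ratio of CpG observed over the number that the C and G content would give had a median of 0.66 for detected guidance genes (quartiles 0.50 and 0.76) and 0.63 for those not detected (quartiles 0.44 and 0.81). Over all genes it was 0.73 in detected and 0.34 in undetected genes. These are descriptions with no test. The 4 promoters below are printed because they show each combination of CpG content and detection, with CG in capitals, each 5′ to 3′ on the strand of its gene. Efna5 (chr17:62881318-62881567, minus strand) was detected and held 32 CpG, Sema3a (chr5:13396534-13396783, plus strand) was detected and held 2, Nrp2 (chr1:62703067-62703316, plus strand) was not detected and held 32, and Plxnb3 (chrX:73756853-73757102, plus strand) was not detected and held 3.
Efna5: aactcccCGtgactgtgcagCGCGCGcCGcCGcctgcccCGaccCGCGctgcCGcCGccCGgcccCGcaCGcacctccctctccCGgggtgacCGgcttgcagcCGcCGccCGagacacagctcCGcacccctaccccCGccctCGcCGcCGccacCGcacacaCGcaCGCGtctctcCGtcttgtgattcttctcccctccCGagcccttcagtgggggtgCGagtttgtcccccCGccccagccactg
Sema3a: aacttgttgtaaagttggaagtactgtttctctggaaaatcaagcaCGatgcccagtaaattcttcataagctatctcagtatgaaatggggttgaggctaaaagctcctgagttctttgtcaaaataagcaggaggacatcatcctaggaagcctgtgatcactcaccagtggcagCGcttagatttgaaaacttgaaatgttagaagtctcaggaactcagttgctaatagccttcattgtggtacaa
Nrp2: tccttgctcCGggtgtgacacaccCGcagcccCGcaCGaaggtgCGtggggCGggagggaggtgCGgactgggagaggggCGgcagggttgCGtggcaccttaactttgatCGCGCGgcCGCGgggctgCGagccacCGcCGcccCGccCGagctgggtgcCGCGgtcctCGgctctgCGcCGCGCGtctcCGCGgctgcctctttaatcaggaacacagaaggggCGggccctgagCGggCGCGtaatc
Plxnb3: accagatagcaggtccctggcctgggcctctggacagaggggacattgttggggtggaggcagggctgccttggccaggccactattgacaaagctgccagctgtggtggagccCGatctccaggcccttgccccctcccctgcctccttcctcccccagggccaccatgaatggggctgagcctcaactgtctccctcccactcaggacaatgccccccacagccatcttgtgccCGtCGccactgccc

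Short motifs were searched in the same 250 bases on both strands, and a gene counted if any of its promoter entries held the letters. The GC box GGGCGG stood in 41 of the 54 guidance genes (75.9%), while 50.1% of all genes on the array with an entry held it. By state it was in 64% of detected and 86.2% of undetected guidance genes, and in 67.3% of detected and 36.4% of undetected genes over all. The E-box CANNTG, to which basic helix-loop-helix factors such as Twist bind, stood in 27 of 54 (50%), against 66.2% of all genes. It was in 40% of detected and 58.6% of undetected guidance genes, and in 61.8% of detected and 69.7% of undetected genes over all. The TATA box letters TATAAA, counted at any position, stood in 2 guidance genes, Efnb2 and Slit2, both detected (3.70%). Over all genes they stood in 13.7%, in 8.24% of those detected and in 18.1% of those not. The letters CTTTGA, the core bound by TCF and LEF factors, stood in Epha2, Sema3e and Nrp2, none of them detected (5.56% of guidance genes, against 14.9% of all genes, 13.0% of those detected and 16.5% of those not). None of these differences was tested, and none was adjusted for base composition. The median GC content of the 250 bases was 65.8% in guidance genes and 56.4% in all genes. A match describes the letters in this window and is no sign that a factor binds there.

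**Figure D2:**
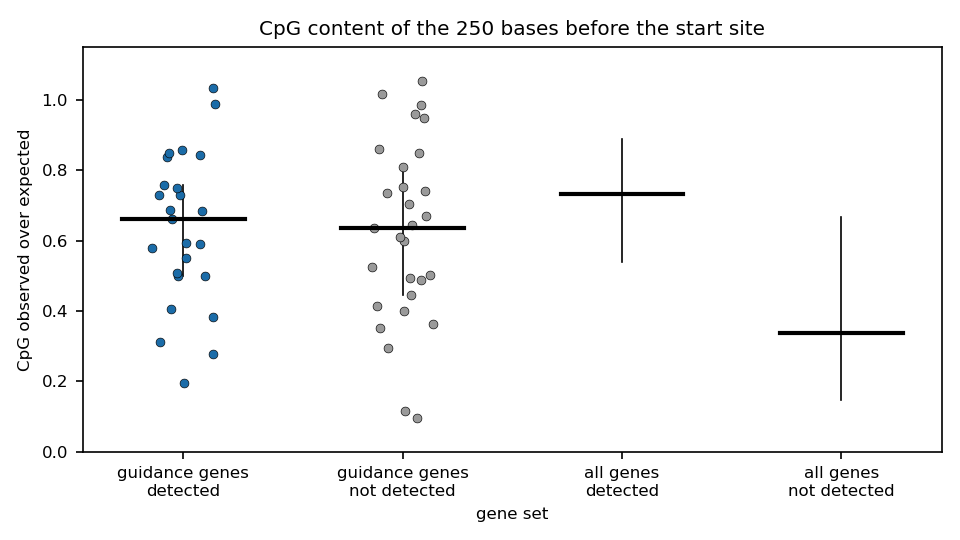
CpG observed over expected in the 250 bases before the start site (vertical axis, a ratio) for 25 detected and 29 undetected guidance genes (points) and for all genes on the array with a promoter entry. Thick bars are medians and thin lines run between the quartiles; the guidance medians of 0.66 and 0.63 lie close together while those of all genes lie at 0.73 and 0.34.

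Ephrin ligands were detected at 5 of 8 genes, beside 43.4% of all genes. Here and below a family holds few genes, and no family count was tested against that share. Efna5, an A ephrin on a lipid anchor that repels axons and sorts cells at tissue borders, read 2742, 2729 and 2764 on arrays 1, 2 and 3 (mean 2745 ± 17.7 normalized units, SD, n = 3). Efna1 lay at 243, 271 and 279 (264 ± 18.9), and Efna4 at 327, 325 and 308 (320.1 ± 10.5). All 3 genes stood clear of background on every array. The A ephrins Efna2 (-3.22 ± 11.2) and Efna3 (-5.34 ± 8.54) passed on no array. Both detected B ephrins were clear of background as well: Efnb1, whose loss causes craniofrontonasal syndrome in people, at 598, 569 and 609 (592 ± 20.8), and Efnb2, the ephrin of arterial endothelium, at 574, 629 and 621 (608 ± 30.1). Efnb3 read 49.97, 24.9 and 58.3 and passed on arrays 1 and 3 but not on array 2, where its detection p was 0.0727.

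Eph receptors, the kinases that bind ephrins, were detected at 6 of 13 genes, beside 43.4% of all genes. These were 3 of 8 of the A group and 3 of 5 of the B group. Epha3 read 459.9, 429 and 477 (455 ± 24.3) and Epha7 436, 399 and 452 (429 ± 26.9). Each is a receptor for A ephrins, so cue and receptor of the A group were read in the same pool. Epha1 lay nearer to background at 59.0, 64.1 and 55.9 (59.7 ± 4.14), with a detection p of 0.00125 on array 2. Of the B group, which binds B ephrins, Ephb1 read 452, 481 and 413 (449 ± 33.7), Ephb2 339.8, 334 and 313 (329 ± 14.1) and Ephb4, the venous partner of Efnb2, 106, 114 and 84.6 (101 ± 15.03). The EphB probes of all 3 genes had a detection p of 0 on each array.

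The remaining Eph receptors were at or near background. Ephb6, a receptor without kinase activity, read 40.1, 43.8 and 38.3 and missed the call on array 2 alone, by a detection p of 0.01003. Ephb3 (30.4, 38.1 and 25.03) passed on array 1 only and Epha8 (13.2, 51.2 and 7.33) on array 2 only. On the arrays where they failed, the detection p was 0.0238 and 0.0150 for Ephb3 and 0.0551 and 0.140 for Epha8. At a looser detection p of 0.05 Ephb3 was detected on all 3 arrays and Epha8 was not. Epha2, Epha4, Epha5 and Epha6 passed on no array, with means of 3.88 to 16.8 for the brightest probe of each. Epha4, which can bind ephrins of both groups, was among them at 14.0, 24.2 and 12.3.

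**Figure D3:**
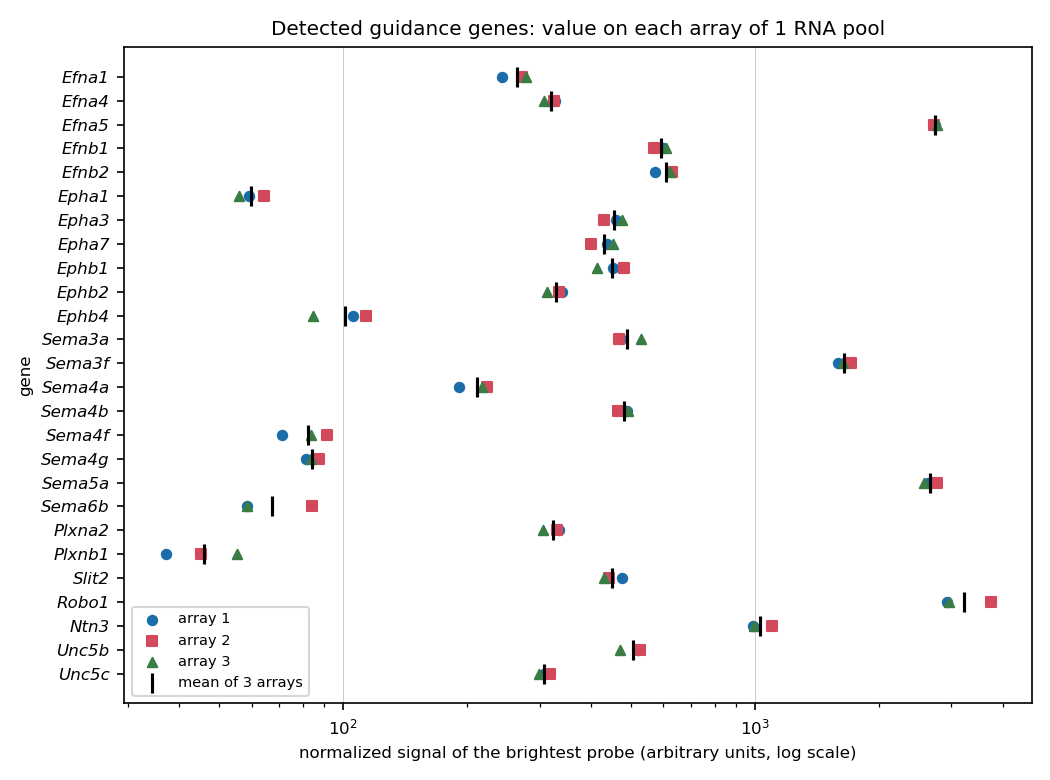
Normalized signal of the brightest probe on arrays 1, 2 and 3 (horizontal axis, arbitrary units, logarithmic) for the 26 detected guidance genes (vertical axis, by family from ephrins to Unc5). Vertical ticks are the means of 3 arrays; the 3 values lie close together for Efna5 and farther apart for Robo1, Sema6b and Plxnb1.

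Semaphorins were detected at 8 of 19 genes, beside 43.4% of all genes. Among the secreted class 3 cues, Sema3f read 1595, 1716 and 1638 (1649.7 ± 61.4) and a further probe for it read 1048, 1095 and 1009.6 (1051 ± 42.9). Sema3a, the repellent that keeps sensory axons out of territories such as embryonic skin, read 473, 469 and 528 (489.7 ± 33.0). Both cues were read on every array at a detection p of 0. Sema3c, which acts through both neuropilins, read 49.9, 36.7 and 53.5 and failed on array 2 only, with a detection p of 0.0238. Sema3b, Sema3d, Sema3e and Sema3g passed on no array, their brightest probes having means of -6.57 to 19.2.

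Of the membrane-anchored class 4 semaphorins 4 of 5 were detected, beside 43.4% of all genes. Sema4b read 490.1, 465 and 492 (482 ± 14.6) and Sema4a 191, 224 and 218 (210.9 ± 17.7). Sema4f (71.0, 91.6 and 83.5) and Sema4g (81.1, 87.4 and 83.5) were detected as well, all with a detection p of 0. Sema4d, the ligand of plexin B1, was not, at 19.7, 6.33 and 5.11. In class 5, whose members carry thrombospondin repeats, Sema5a read 2631, 2778 and 2570.2 by 1 probe and 1772, 1829.8 and 1599 by the other (means 2659.6 ± 107 and 1733 ± 120.3). Its paralog Sema5b (21.97, 27.5 and 31.6) passed on array 3 only. The class 5 pair thus had 1 member clear of background by both of its probes and 1 member at its edge.

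Class 6 semaphorins, which span the membrane and bind A plexins, were detected at 1 of 4 genes, beside 43.4% of all genes. Sema6b read 58.4, 84.3 and 58.4 (67.1 ± 14.9) by its brightest probe, with array 2 apart from the other two. Sema6d read 13.1, 32.7 and 33.5 by its brightest probe and passed on array 3 only. Sema6a and Sema6c passed on no array by any probe. Sema7a, the only class 7 member and held by a lipid anchor, read 37.4, 31.3 and 49.4 by its brightest probe. This probe failed on array 2 only, with a detection p of 0.0288. Its other probes, at means of -5.99 ± 9.91 and -8.93 ± 5.29, passed on no array.

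Of the plexins, the signalling receptors of semaphorins, 2 of 8 were detected, beside 43.4% of all genes. Plxna2, a receptor for class 6 semaphorins and a signalling partner of neuropilins, read 335, 331 and 307 (324 ± 15.2). Plxnb1, the Sema4d receptor, was close to the limit of detection, at 37.1, 45.2 and 55.2 (45.8 ± 9.06), and had a detection p of 0.00877 on array 2. Plxna1, Plxna3, Plxna4, Plxnb3, Plxnc1 and Plxnd1 passed on no array, with means of -7.89 to 18.02 for their probes. Plxnd1, the endothelial receptor of Sema3e, was among these, and Sema3e was not detected either. Neuropilin 2, the receptor of Sema3f, passed on no array by any of its 3 probes, the brightest of which read 22.3, 4.31 and 12.3. Neuropilin 1, which binds Sema3a, stood on the array under an older symbol and so was not a member by the rule. Its probes were both detected, at 1712, 1621 and 1835 (1723 ± 107) and at 1571, 1413 and 1565 (1516 ± 89.8).

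Slits and Robos were detected at 2 of 5 genes, beside 43.4% of all genes. Slit2 read 476, 442 and 430.2 (449.5 ± 24.0), whereas Slit1 (-0.416, -16.9 and 5.25) and Slit3 (19.9, 7.73 and 16.3) passed on no array. Robo1, a receptor of the Slits, read 2933, 3742 and 2966 (3214 ± 458). Its reading on array 2 was above both others, by 0.34 on the log2 scale relative to their mean. Robo2 was at background on every array (1.41, 2.58 and -2.79). Slit2 and Robo1 are a cue and its receptor, and each was read by 1 probe.

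Netrins and Unc5 receptors were detected at 3 of 7 genes, beside 43.4% of all genes. Ntn3, a netrin known from embryonic sensory ganglia and muscle, read 989, 1102 and 993 by its brighter probe (1028 ± 64.1) and 91.9, 64.2 and 112 by the other (89.3 ± 23.9). Ntn1, the best known of the netrins, and Ntn4, a basement membrane netrin, passed on no array, at 2.61, 0.665 and -12.4 and at -0.411, 14.9 and -0.484. Of the repulsive receptors, Unc5b, which is also an endothelial receptor, read 520.2, 526 and 471 (506 ± 30.5) and Unc5c 308, 318 and 299 (308 ± 9.66). Unc5a by both probes and Unc5d passed on no array, with means of -3.07 to 15.7 for the brightest probe of each. The 2 symbols matched by letters only, Unc50 (-13.7 ± 2.71) and Unc5cl (-8.75 ± 4.63), were likewise at background.

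Known partners were then read side by side, from a list of 25 pairs of a semaphorin, Slit or Ntn1 with a receptor it binds. Both partners were detected in 2 pairs, Sema3a with Nrp1 and Slit2 with Robo1. The cue alone was detected in 6 pairs, 4 of which were Sema3f with Nrp2 and Sema5a with each of Plxna1, Plxna3 and Plxnb3. The receptor alone was detected in 8 pairs, among them Plxnb1 without Sema4d, Plxna2 without Sema6a, and Unc5b, Unc5c and the netrin receptor Neo1 without Ntn1. Ntn1 was the only netrin on the list. The netrin Ntn3, the RGM cue Rgma and the Unc5 ligand Flrt2 were detected but stood in no pair. The list therefore does not show that Unc5b, Unc5c or Neo1 lacked a detected cue. In 9 pairs neither partner was detected. A gene could stand in several pairs. Nrp1, Robo1 and Slit2 each stood in a pair with both partners detected and in at least 1 pair counted as receptor or cue alone. Taken singly, 43.4% of all genes on the array were detected. No ephrin or Eph receptor was on the list, and Sema6b stood with Plxna4 but not with Plxna2, which was detected. The pair counts thus describe this list and do not show how often cue and receptor were detected together.

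Beyond these families, 47 of 55 listed genes of guidance pathways had a probe, and 27 of the 47 were detected (57.4%), beside 43.4% of all genes. The first detected genes in list order were Neo1, a receptor for netrins and RGM proteins (1416, 1378 and 1385), Rgma, an RGM cue (562, 542 and 580.0), Draxin, which encodes a repellent that binds Dcc (103, 80.7 and 94.9, by 1 of 3 probes) and Flrt2, an Unc5 ligand (769.9, 721 and 753). All of them lay clear of zero on every array. The first genes not detected were Rgmb (-1.53 ± 4.26), the netrin receptor gene Dscam (3.16 ± 7.16), Flrt1 (-2.29 ± 9.49) and Ntng2 (4.50 ± 3.93). With a call required from all probes of a gene, the count was 16 in place of 27. The share of all genes under that rule was not computed, and 43.4% cannot be set beside 16.

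Genes with more than 1 probe often gave different answers by probe. There were 16 such guidance genes, and 9 of them had at least 1 detected probe. In 6 of the 9 the probes differed in state (66.7%), while 69.4% of all such genes on the array did. Efna5 was read at 2745 ± 17.7 by 1 probe and at 0.718 ± 2.28 by the other. For Sema3f 2 probes were detected and another lay at -0.239 ± 2.46, and for Sema6b 2 of 4 were detected, with the undetected pair at 1.54 ± 10.3 and -2.63 ± 9.93. Epha1 rested on 1 of 4 probes and Epha3 and Epha7 each on 1 of 3. The second Epha3 probe read 38.4, 14.95 and 38.2 and failed on array 2 only, and the third had a mean of 16.8 ± 6.85. All probes were detected for Efna4, Sema5a and Ntn3. With every probe required, 7 in place of 11 Eph and ephrin genes were detected, and 20 in place of 26 guidance genes in all. These counts have no share of all genes beside them, as it was not computed under that rule.

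**Figure D4:**
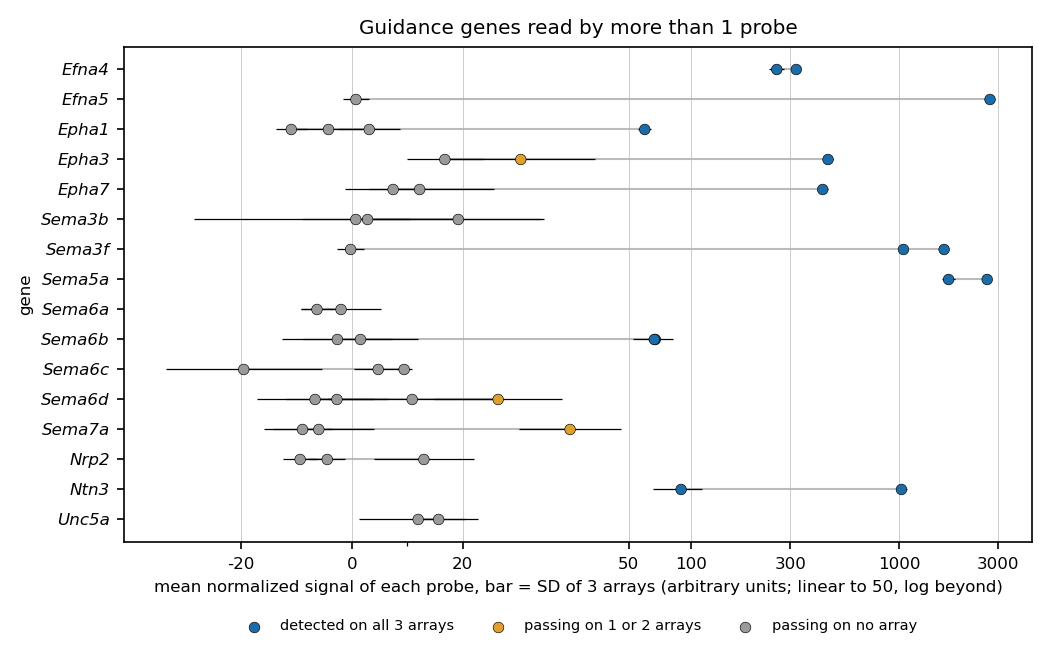
Mean normalized signal of each probe (horizontal axis, arbitrary units, linear up to 50 and logarithmic beyond) for the 16 guidance genes with more than 1 probe (vertical axis), with the SD of 3 arrays as bars. Colours give the number of arrays passed and grey lines join the probes of 1 gene; in Efna5 and Sema3f a probe at background stands beside probes above 1000.

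The spread between arrays was small beside the signals. For the 31 detected guidance probes the SD of log2 signal had a median of 0.09, against 0.11 for all 9693 detected probes, and the coefficient of variation a median of 6.23%, against 7.56%. The steadiest was the detected Efna5 probe, at an SD of 0.0093 on the log2 scale, and the least steady was the dimmer Ntn3 probe, at 0.41. Array 2 stood apart from the other two: over all probes arrays 1 and 3 correlated at 0.998, and array 2 at 0.980 with array 1 and 0.977 with array 3 (Pearson, linear scale, across probes of the same RNA). It was the highest of the 3 arrays for 18 of the 31 probes and the lowest for 7, counts not made over all detected probes. Its log2 value lay above the mean of arrays 1 and 3 for 23 of 31 (74.2%), while this held for 53.8% of all detected probes, and the median shift was 0.09, against 0.02 for all. The shifts ran from -0.66 for the dimmer Ntn3 probe to 0.53 for the brightest Sema6b probe.

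Calls near background turned on array 2 as well. It detected 32 of the 92 guidance probes, where array 1 detected 37 and array 3 detected 38. Over all probes it also detected the smallest share, 39.0%, where array 1 detected 44.9% and array 3 detected 41.6%. All 5 guidance probes that passed on exactly 2 arrays failed on array 2, those of Efnb3, Epha3, Ephb6, Sema3c and Sema7a; among all probes on the array that passed on exactly 2, 84.3% failed there. Without array 2 the genes Efnb3, Ephb6, Sema3c and Sema7a were detected too, making 30, with Sema7a resting on its brightest probe alone. A further 4 probes passed on exactly 1 array.

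**Figure D5:**
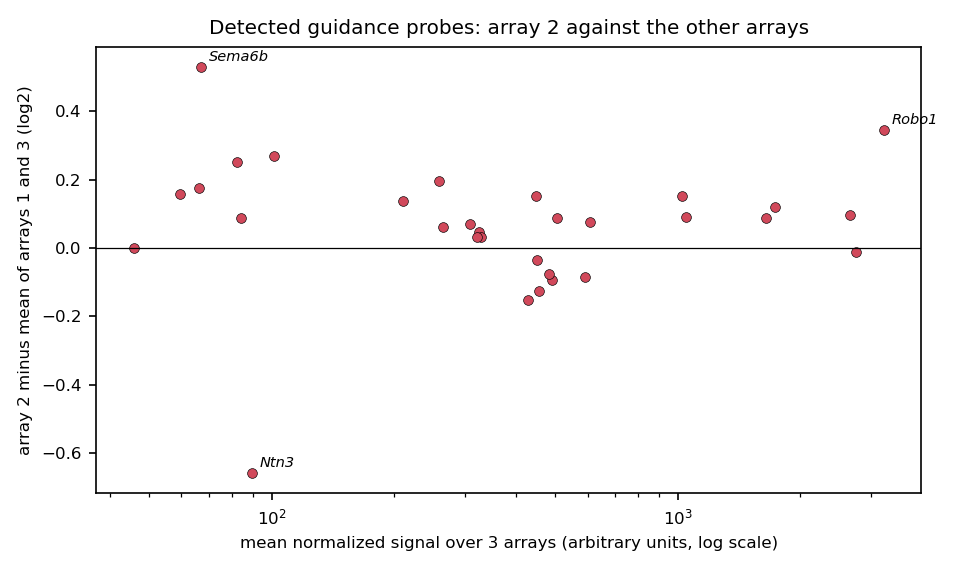
Log2 signal on array 2 minus the mean of arrays 1 and 3 (vertical axis) against mean normalized signal (horizontal axis, arbitrary units, logarithmic) for the 31 detected guidance probes. Of these, 23 lie above 0, and the dimmer Ntn3 probe (-0.66), the brightest Sema6b probe (0.53) and Robo1 (0.34) lie farthest from it.

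Several guidance genes are also known from endothelium, nerve or epidermis, so markers of the tissue and its neighbours were read in the same pool. Of 10 markers of dermal fibroblast progenitors 9 were detected, with summed signals of 17559 to 18821 per array, and only Dpt was not. Endothelial markers were detected at 6 of 8 (sums of 1900.1 to 2007), without Kdr and Tie1, and neuronal markers at 6 of 8 (2418 to 2493), without Nefl and Tubb3. Epidermal markers were detected at 5 of 5 (2065 to 2212), macrophage markers at 4 of 5 (682 to 732, without Ptprc), skeletal muscle markers at 4 of 6 (4356 to 4667, without Myod1 and Myf5) and cartilage markers at 5 of 6 (5298 to 5452, without Col9a1). Each sum depends on the length of its list and on how well its probes bind, and it includes the probes not detected. The sums are therefore not set against each other and give no share of cells. Which of these cells carried a given guidance transcript, Efnb2, Ephb4 and Unc5b included, was not tested. In a pooled sample, few cells with much RNA and many cells with little cannot be told apart.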

How the data were processed

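The authors deposited non-normalized bead intensity and normalized intensity, both with a detection p-value per probe and array per the file headers, and a series value table whose values equalled the normalized ones. Within an array the 2 intensities lay on a straight line, with slopes of 0.672, 2.07 and 0.699 for arrays 1, 2 and 3. Normalized values below 0 occur. The normalization method, the scanner software and the genome build are not given in the sources used here. Detection p-values came in steps of 1 in 798, as ranks against that many control bead types.

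Probes were taken by file symbol, and a gene took the value of its brightest probe. Genes outside the families were matched by file symbol, by the symbol in the probe's definition or by an older symbol belonging to 1 gene only in RefSeq (GRCm38.p6). The named genes were all members of the families, ordered by role, and for the list of other pathway genes the first 4 detected and the first 4 not detected. Members, lists, ligand and receptor pairs and promoters were chosen with earlier results of these data known. With 1 group no comparison was fitted, and the number of arrays limits the precision. Detection p thresholds of 0.05 and 0.001, fewer arrays, each array left out, quantile normalization and neqc (limma 3.58.1, R 4.3.3, offset 16) were tried. Other steps used Python 3.11.15, and the counting and spread steps were tested on simulated data. The result of 1 marker list is not reported here.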

Additional observations from a re-analysis of the deposited data

How the results depend on the processing

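Counts of detected guidance genes held within 1.5 times of their value under every threshold and array setting tried. They were 24 at a detection p under 0.001 (39.4% of all genes detected), where Epha1 and Plxnb1 lost the call, 30 at under 0.05 (48.3%) and with 2 arrays sufficing (47.4%), and 34 with 1 array sufficing (51.5%). Leaving out 1 array gave 26 to 30 genes and 31 to 36 probes, with 43.5% to 46.8% of all genes detected. Slit and Robo genes stayed at 2 and netrin and Unc5 genes at 3 under all of these. Requiring every probe of a gene gave 7 in place of 11 Eph and ephrin genes and 16 in place of 27 other pathway genes, since this rule counts fewer genes by construction. Its share over all genes was not computed. Adding Nrp1, an alternative chosen after seeing the data, gave 27 genes, and leaving out Unc50 and Unc5cl, chosen likewise, gave 26. The median SD of log2 signal was 0.73 on non-normalized signal and 0.0662 after quantile normalization, against 0.0885 as deposited. Leaving out 1 array gave 0.0562 to 0.0945. The mean signals of 25 of 26 detected genes moved by more than their SD under neqc and under quantile normalization, and those of 9 when all probes were averaged. Over all 26 genes the ratios to the deposited signal were 1.12 to 1.498 under neqc and 1.03 to 2.87 under quantile normalization. No gene's mean moved by more than its SD when 1 array was left out. With 3 values this could not come out otherwise, so it is no sign of stability. No paired analysis was possible because there was 1 group. With 3 arrays, no outlier test was applied to single values. Signals near the control beads, below means of about 50, limit what can be called.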
